A study of Mus musculus with 20 samples.

Results

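The genes described here encode receptors for steroid and thyroid hormone and the enzymes that make or inactivate steroid hormone in the cell. They are the receptors Esr1, Nr3c1, Nr3c2, Thra and Thrb and the enzymes Srd5a1, Hsd3b2, Hsd11b1 and Hsd11b2. These 9 genes were chosen by name, and the probe sets that carried only 1 of these symbols were taken as their measurements. Of the 9 genes, 8 were measured, among 18194 genes in all. Srd5a1, which converts testosterone to the more potent dihydrotestosterone, was not analysed here because no probe set with a single symbol carried its name. RNA of salivary glands freed of lymph nodes was hybridised to an Affymetrix whole-genome expression array for each mouse. The mice were C57BL/6J, labelled male, with 5 mice at each of the ages of 4, 8, 12 and 16 weeks. In the study they served as the healthy strain beside the C57BL/6.NOD-Aec1Aec2 model of Sjögren's syndrome, whose arrays were not used here. Each comparison below asks how the signal of a gene differed between healthy mice of different ages. Every age was a separate group of 5 mice. The labels give no harvest day, time of day or array run. Differences between ages therefore cannot be told apart from differences in these.

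Steroid and thyroid hormone receptors are transcription factors that bind their hormone inside the cell and act on response elements in DNA. What a receptor meets depends on enzymes in the same tissue, since these enzymes can build, activate or destroy its ligand. In rodent submandibular gland the granular convoluted tubules, which secrete kallikreins and growth factors, depend on androgen and thyroid hormone for their growth. The ducts of salivary glands take up sodium under the control of mineralocorticoids. Whole glands were measured, so fewer cells of a type and less RNA per cell cannot be told apart.

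Values are log2 signals after robust multiarray averaging (RMA), and a difference of 1 stands for a factor of 2 in signal. A gene was called changed at an adjusted p under 0.05 from limma (Benjamini-Hochberg, all 18194 genes together). The SD of all gene values of an array, the spread of its signals, was 1.68 ± 0.145 in 4-week, 1.498 ± 0.0901 in 8-week, 1.64 ± 0.0273 in 12-week and 1.51 ± 0.139 in 16-week mice (mean ± SD, n = 5 each). Many calls depended on 4 mice, replicates 4 and 5 at 4 weeks and replicates 3 and 5 at 8 weeks. At 8 against 4 weeks 1345 genes were called, but between 14 and 22 genes when any 1 of these 4 mice was left out and 16 genes with the spread as a covariate. Xist, the X-linked RNA of female cells, read between 8.96 and 10.7 and at or above the 96.3rd percentile of genes in all 20 arrays. The Y-linked gene Eif2s3y read between 2.07 and 2.97, at or below the 4.47th percentile. Of the other Y-linked genes, Kdm5d read between 3.65 and 4.75 and Uty between 4.58 and 5.76. High Xist and low Eif2s3y go against the label male, and the cause was not tested. The gland was recognisable by Klk1, a kallikrein of salivary ducts, which read at or above the 99.8th percentile in every array.

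Of the 8 genes only Hsd3b2, a 3-beta-hydroxysteroid dehydrogenase that carries steroid precursors towards active hormones, passed the test, with a signal about 1 log2 unit higher at 8 than at 4 weeks. Thra, the gene of thyroid hormone receptor alpha, had its highest signal at 16 weeks on each of its 3 probe sets without passing the test. Nr3c1, the gene of the glucocorticoid receptor, has 6 probe sets. At 8 against 4 weeks 1 of these was called lower and 1, the dimmest, higher. No other gene of the 8 passed the test between any ages.

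By their rank among all genes of an array, Hsd11b1 was the brightest of the group, between the 82.7th and the 92.5th percentile. Thra lay between the 68.5th and the 85.3rd percentile, Hsd3b2 between the 43.3rd and the 89.4th, and Nr3c1 between the 42.5th and the 78.2nd. Esr1, Thrb and Nr3c2 were dimmer, with lowest percentiles of 25.4, 25.8 and 17.2 and highest percentiles of 53.7, 49.5 and 40.2. Hsd11b2 stayed between the 3.2nd and the 10.2nd percentile, where a signal can hardly be told from background. A percentile compares signals of different probe sets, which is not a comparison of transcript numbers.

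**Figure D1:**
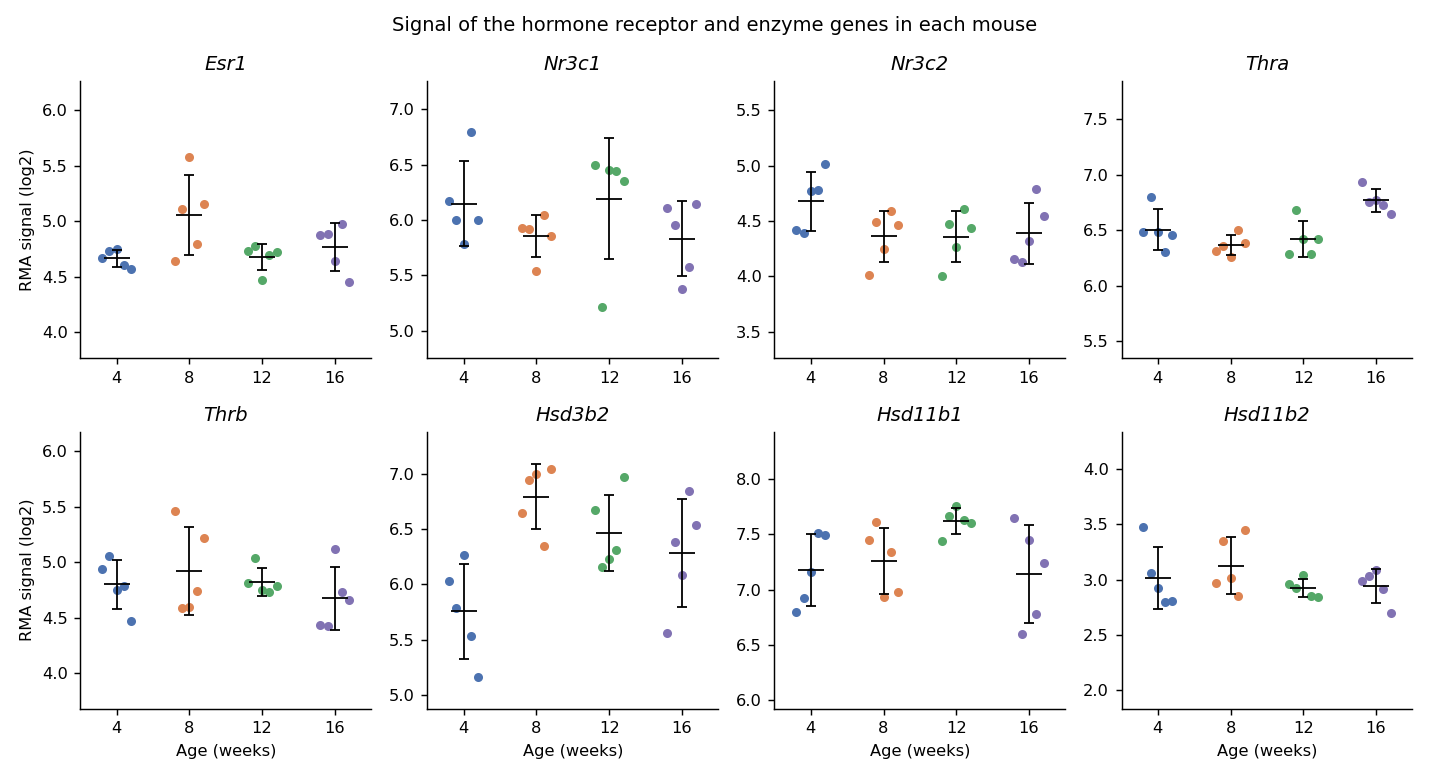
RMA signal (log2) of 8 hormone receptor and enzyme genes against age in weeks, with 1 point for each mouse, a short line at the mean and bars of 1 SD (n = 5 at each age). All panels span 2.5 log2 units. The 5 points of Hsd3b2 at 8 weeks lie above the 5 points at 4 weeks, and the 5 points of Thra at 16 weeks lie above the 5 points at 8 weeks.

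Hsd3b2 (chromosome 3, 98711107 to 98724543, RefSeq on GRCm38.p6) lies in a cluster of related Hsd3b genes. Its enzyme family turns delta-5 steroids such as pregnenolone and dehydroepiandrosterone into delta-4 steroids, an obligatory step towards progesterone, glucocorticoids and androgens. The probe set of Hsd3b2 read 6.64, 6.94, 7.001, 6.34 and 7.04 in the 5 mice at 8 weeks, against 6.03, 5.79, 6.26, 5.54 and 5.17 in the 5 mice at 4 weeks. All mice at 8 weeks were above all mice at 4 weeks. The difference was 1.04 (standard error 0.24, 95% interval 0.55 to 1.53, adjusted p = 0.0257 from limma). Hsd3b2 was thus 1 of 8 genes called higher, where 3.26% of all genes were called higher and 7.39% were called in either direction. It was also the 1 of 8 genes whose mice did not overlap between these ages, against 3.79% of all genes whose mice at 8 weeks were all higher.

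At the later ages Hsd3b2 lay between these levels. It read 6.67, 6.16, 6.23, 6.31 and 6.97 in mice at 12 weeks and 5.56, 6.39, 6.09, 6.84 and 6.53 in mice at 16 weeks. Means were 5.76 ± 0.43 in 4-week, 6.79 ± 0.30 in 8-week, 6.47 ± 0.34 in 12-week and 6.28 ± 0.49 in 16-week mice (SD, n = 5 each). The mice at 12 weeks and at 16 weeks overlapped with those at both younger ages. Against 4 weeks the difference was 0.71 at 12 weeks (adjusted p = 0.3996 from limma) and 0.53 at 16 weeks (adjusted p = 0.178), and the F test over the 4 ages gave an adjusted p of 0.0637. Without replicate 1 at 16 weeks, the mouse of the lowest signal at that age, the difference between 16 and 4 weeks was 0.71 and passed the test (adjusted p = 0.0356 from limma).

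Signal of Hsd3b2 moved with the spread of signals in the arrays. Over the 20 arrays, with values centred on each age, its Pearson correlation with the spread was -0.76, whereas the correlations of all genes had quartiles of -0.40 and 0.59. With the spread as a covariate the difference between 8 and 4 weeks was 0.55 and did not pass the test (adjusted p = 0.324 from limma). The call also needed each of 4 mice, since without replicate 4 or 5 at 4 weeks or replicate 3 or 5 at 8 weeks the adjusted p was between 0.0610 and 0.0883. In all 20 fits without 1 mouse the difference stayed between 0.89 and 1.16.

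Other genes of the family were set beside Hsd3b2 because their sequences are close. A second probe set is annotated to Hsd3b2 together with Hsd3b3 and Hsd3b6, and its difference between 8 and 4 weeks was 0.34 (adjusted p = 0.368 from limma over all probe sets). The probe set of Hsd3b3, a neighbour on the same strand, was called 0.79 higher at 8 than at 4 weeks (standard error 0.23, adjusted p = 0.0450), whereas Hsd3b1, the adrenal and gonadal form in the mouse, differed by 0.15 (adjusted p = 0.504). How far these probe sets share signal was not tested. The genes nearest to Hsd3b2 over the 20 arrays were Krt6b, Dlg2 and Sulf1, each with a Pearson correlation of 0.91 with Hsd3b2. With values centred on each age they were Pvr (0.904), D030055H07Rik (0.90) and Stam (0.88). These correlations describe 20 arrays that share platform and normalization.

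The 250 bases before an annotated start of Hsd3b2 and of Hsd3b3 are shown because these 2 neighbours were both called higher at 8 weeks. The sequences are those of RefSeq on GRCm38.p6, minus strand, at chr3:98724544-98724793 for Hsd3b2 and at chr3:98763129-98763378 for Hsd3b3. Hsd3b3 (98741476 to 98764540) had 2 windows, both inside the gene, and the first is shown. Capitals mark AGAACA, the half-site read by glucocorticoid and mineralocorticoid receptors, on either strand (as TGTTCT on the other).
Hsd3b2: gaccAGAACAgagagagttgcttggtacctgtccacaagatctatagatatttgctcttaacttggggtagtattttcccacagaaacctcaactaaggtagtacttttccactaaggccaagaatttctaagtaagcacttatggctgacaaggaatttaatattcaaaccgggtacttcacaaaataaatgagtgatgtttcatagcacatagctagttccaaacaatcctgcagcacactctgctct
Hsd3b3: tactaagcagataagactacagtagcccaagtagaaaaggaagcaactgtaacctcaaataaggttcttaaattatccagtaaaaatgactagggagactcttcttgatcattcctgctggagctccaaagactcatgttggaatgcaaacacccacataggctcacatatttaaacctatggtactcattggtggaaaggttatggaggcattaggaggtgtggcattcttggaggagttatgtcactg
Hsd3b2 held AGAACA 1 time, from 246 to 241 bases before the start. Neither AGAACA nor AGGTCA, the half-site of estrogen and thyroid hormone receptors, nor the TATA motif TATAAA lay in either window of Hsd3b3. The window of Hsd3b6 held AGAACA on both strands. On either strand AGAACA was found in 16.1% of 32851 such windows, AGGTCA in 14% and TATAAA in 12.4%. Among the other genes, 1 window of Thrb held AGGTCA, and a second window of Thrb held AGAACA on both strands and TATAAA. No window of Esr1, Nr3c2, Srd5a1 or Hsd11b1 held any of the 3 motifs. Thra, Nr3c1 and Hsd11b2 had no window in the table. A match of 6 letters is a description and not a binding site.

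Across the 6 comparisons between ages, 1 of 48 tests of a gene passed, that of Hsd3b2 at 8 against 4 weeks. None of the 8 genes was called at 12 against 8 weeks, 16 against 12 weeks, 12 against 4 weeks, 16 against 8 weeks or 16 against 4 weeks by limma. In these comparisons 0.0055%, 0.192%, 0.0934%, 0% and 3.63% of all genes were called. At an unadjusted p under 0.05, 2 of the 8 genes passed at 8 against 4 weeks, where 32.4% of all genes did. In the order just given, 1, 2, 2, 2 and 2 of the 8 genes passed unadjusted, against 18.8%, 14.2%, 9.03%, 5.81% and 24.2% of all genes. By the F test over all ages 0 of 8 genes were called, against 2.6% of all genes, and 2 passed unadjusted, Hsd3b2 and Thra, against 25.9%. At 8 against 4 weeks the median log2 fold change of the 8 genes was 0.10, against 0.05 for all genes. For the 7 genes other than Hsd3b2 all 42 of the 95% intervals, not adjusted for their number, lay between -0.88 and 0.85, within a factor of 2 in signal. These bounds hold for the signal of the probe set used. Intervals of a dimmer probe set of Nr3c1 reached 1.32 at 12 against 8 weeks and -1.198 at 16 against 12 weeks, and that of a dimmer one of Thra reached 1.11 at 16 against 12 weeks.

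**Figure D2:**
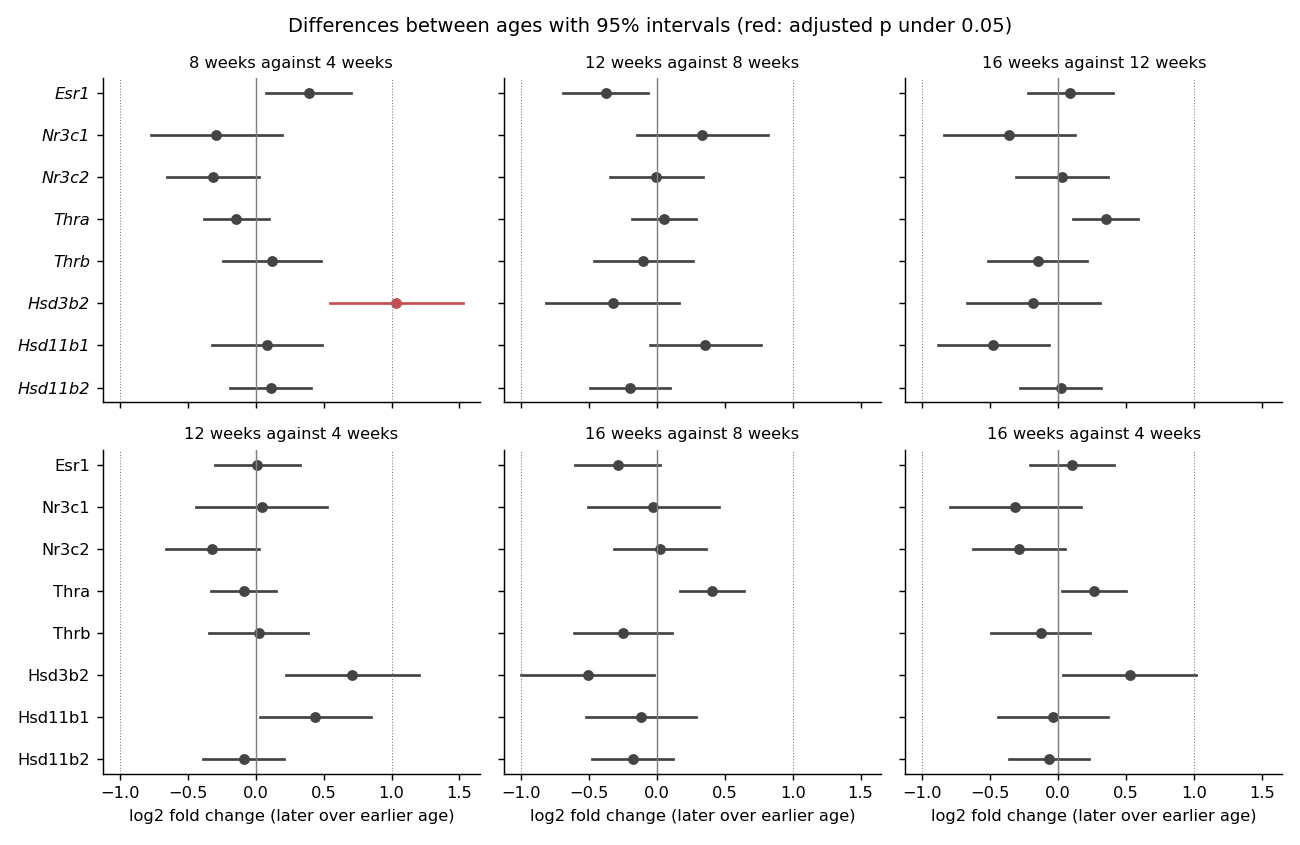
log2 fold change of each gene (later over earlier age) with its 95% interval from limma in 6 comparisons between ages of 5 mice each. Dotted lines mark a factor of 2. Only the interval of Hsd3b2 at 8 against 4 weeks is red (adjusted p = 0.0257), and the intervals of the other 7 genes lie between -0.88 and 0.85.

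Of the 5 receptors Thra had the smallest SD within ages, 0.14, and the widest range of age means, 0.40. It encodes thyroid hormone receptor alpha, the form that prevails in heart, bone and brain. Its probe set read 6.93, 6.75, 6.77, 6.73 and 6.65 in mice at 16 weeks, against 6.28, 6.68, 6.42, 6.28 and 6.42 in mice at 12 weeks. In the younger groups it read 6.48, 6.80, 6.48, 6.30 and 6.46 at 4 weeks and 6.32, 6.36, 6.26, 6.501 and 6.39 at 8 weeks. The mice at 16 weeks were all above the mice at 8 weeks, while 1 mouse at 12 weeks and 1 at 4 weeks reached their range. Of all genes 0.17% had all mice at 16 weeks above all mice at 8 weeks.

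The difference of Thra was 0.40 at 16 against 8 weeks (standard error 0.11, unadjusted p = 0.00198, adjusted p = 0.648 from limma). At 16 against 12 weeks it was 0.35 (unadjusted p = 0.00587, adjusted p = 0.197 from limma) and at 16 against 4 weeks 0.26 (adjusted p = 0.166). These values stayed positive in all 10 alternative settings, between 0.34 and 0.49 for 16 against 12 weeks, and none passed the test. Both other probe sets of Thra also had their highest mean at 16 weeks, with differences from 8 weeks of 0.51 and 0.60 (adjusted p = 0.555 and 0.563 from limma). The pooled SD of Thra within ages was small, with a smaller one in 1.37% of genes. The gene (chromosome 11, 98740776 to 98769006) overlaps with Nr1d1 over 1075 bases of the reference. Nr1d1, a clock gene of the nuclear receptor family, fell by 1.07 at 8 against 4 weeks (adjusted p = 0.00535 from limma), whereas Thra differed by -0.14 (adjusted p = 0.385).

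Thrb (chromosome 14, 17659225 to 18040097) encodes thyroid hormone receptor beta, the form that governs the feedback of the pituitary and much of the hormone's action in liver. It averaged 4.8 ± 0.22 in 4-week, 4.92 ± 0.40 in 8-week, 4.82 ± 0.12 in 12-week and 4.67 ± 0.28 in 16-week mice (SD, n = 5 each). The range over the 5 mice was widest at 8 weeks, between 4.59 and 5.46. No comparison passed the test, and the largest difference, at 16 against 8 weeks, was -0.25 (adjusted p = 0.887 from limma).

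Esr1 (chromosome 10, 4611989 to 5005633), the gene of estrogen receptor alpha, was higher on average at 8 weeks than at the other ages, though not by the test. It read 4.64, 5.11, 5.58, 4.79 and 5.16 in mice at 8 weeks, against 4.67, 4.74, 4.75, 4.61 and 4.57 in mice at 4 weeks. The difference was 0.39 (standard error 0.15, adjusted p = 0.0883 from limma), with 4 of 5 mice at 8 weeks above all mice at 4 weeks. At 12 weeks the mean was back at 4.68 ± 0.12 and at 16 weeks it was 4.77 ± 0.21 (SD, n = 5 each), with a difference of -0.38 at 12 against 8 weeks (adjusted p = 0.202). Each of the 3 probe sets had a higher mean at 8 than at 4 weeks, by 0.39, 0.36 and 0.49. On the second the mice at 8 weeks read 4.24, 4.26, 5.10, 4.22 and 4.61, against 3.93 to 4.28 at 4 weeks. The third averaged 2.68 over the 20 arrays, below the 3.00 of Hsd11b2, where signal can hardly be told from background. There the mice at 8 weeks read 3.11, 3.95, 2.57, 2.63 and 2.49, against 2.32 to 2.63 at 4 weeks. Esr1 was called when its probe sets were averaged (0.41, adjusted p = 0.0317 from limma) and when replicate 1 at 8 weeks was left out (0.49, adjusted p = 0.0407). With the spread of signals as a covariate its adjusted p was 0.594.

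Nr3c1 (chromosome 18, 39410545 to 39519421) encodes the glucocorticoid receptor, which is active in nearly all cells. Its brightest probe set read 5.93, 5.92, 5.54, 6.04 and 5.85 in mice at 8 weeks, against 6.17, 5.996, 5.79, 6.79 and 5.996 in mice at 4 weeks. The difference was -0.29 (standard error 0.23, adjusted p = 0.378 from limma). At 12 weeks the values were 6.49, 5.22, 6.45, 6.44 and 6.35, and at 16 weeks they were 6.11, 5.96, 5.37, 5.57 and 6.15. The mouse at 5.22 stood far below the other 4 mice of its age. Without it the difference at 12 against 8 weeks was 0.58 in place of 0.33 (adjusted p = 0.209 and 0.410 from limma) and that at 16 against 12 weeks was -0.60 in place of -0.36 (adjusted p = 0.207 and 0.499).

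The 6 probe sets of Nr3c1 did not move together. Probe set 1421867_at read 5.37, 5.31, 5.85, 5.82 and 5.43 at 8 weeks, against 6.18, 5.96, 6.14, 6.45 and 6.37 at 4 weeks, with all mice at 8 weeks lower. Probe set 1421866_at read 4.08, 4.11, 4.21, 3.65 and 4.37 at 8 weeks, against 3.33, 3.43, 3.75, 3.67 and 3.52 at 4 weeks, with 4 of 5 mice at 8 weeks above all those at 4 weeks. In a fit over all 45101 probe sets, which called 4.2% higher and 3.24% lower, 1421867_at fell by 0.66 at 8 weeks (adjusted p = 0.0236 from limma) and 1421866_at rose by 0.55 (adjusted p = 0.0405). Probe set 1453860_s_at differed by 0.55 (adjusted p = 0.0515 from limma), and the remaining 3 differed by between -0.30 and 0.04. Over the 20 arrays 1421866_at averaged 3.71 and 1453860_s_at 4.23, against 5.90 for 1421867_at. A probe set as dim as 1421866_at is limited by signal over background. Probe sets of a gene were called in both directions in 44 of 9012 genes that had several, or 0.488%. That share covers all genes with more than 1 probe set, and genes with as many as 6 were not counted apart.

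The signs held for the 2 called probe sets in all 5 alternative settings and in all 20 fits without 1 mouse. The calls did not. Probe set 1421867_at was called in 2 of the 5 settings and in 16 of 20 fits without 1 mouse. Probe set 1421866_at was called in 0 of the 5 settings, with adjusted p between 0.0621 and 0.427, and in 13 of 20 fits. The mouse with the low value at 12 weeks read 6.30 on 1421867_at, the highest of its age there. Where in the transcript each probe set lies was not analysed here.

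**Figure D3:**
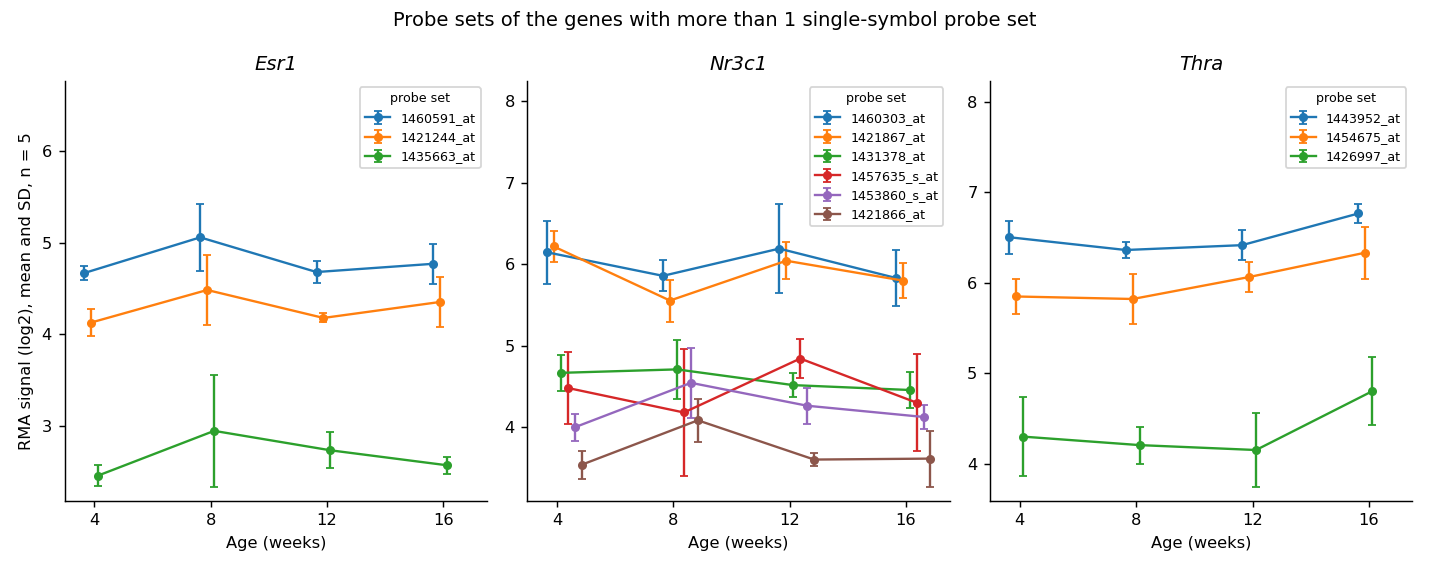
RMA signal (log2, mean with bars of 1 SD, n = 5) against age in weeks for the probe sets of Esr1, Nr3c1 and Thra. All 3 probe sets of Esr1 have their highest mean at 8 weeks and all 3 of Thra at 16 weeks, whereas those of Nr3c1 run in opposite directions between 4 and 8 weeks (-0.66 and 0.55).

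Nr3c2 (chromosome 8, 76898083 to 77245012) encodes the mineralocorticoid receptor, which binds aldosterone and, with like affinity, glucocorticoids. Its mean was highest at 4 weeks, 4.68 ± 0.27, and was 4.36 ± 0.23 at 8 weeks, 4.36 ± 0.23 at 12 weeks and 4.39 ± 0.28 at 16 weeks (SD, n = 5 each). Against 4 weeks the differences were -0.31 at 8 weeks, -0.32 at 12 weeks and -0.29 at 16 weeks (adjusted p = 0.183, 0.574 and 0.285 from limma). They share the mice at 4 weeks, of which replicate 5 had the highest value, 5.02. Ages overlapped in every comparison.

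Hsd11b2 and Hsd11b1 stand on either side of both corticosteroid receptors. Hsd11b2 inactivates glucocorticoids and so leaves the mineralocorticoid receptor of sodium-transporting ducts to aldosterone. Its probe set (gene on chromosome 8, 105518746 to 105523988) averaged 3.01 ± 0.28 in 4-week, 3.12 ± 0.26 in 8-week, 2.93 ± 0.08 in 12-week and 2.95 ± 0.15 in 16-week mice (SD, n = 5 each). At so low a signal a change may not be measurable on this array.

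Hsd11b1 (chromosome 1, 193221640 to 193264045) regenerates active glucocorticoid from its inert 11-keto form. It read 7.44, 7.66, 7.75, 7.63 and 7.60 in mice at 12 weeks, against 6.80, 6.93, 7.16, 7.51 and 7.49 in mice at 4 weeks. The mice at 8 weeks read 7.44, 7.61, 6.93, 7.33 and 6.97 and those at 16 weeks 7.65, 6.59, 7.44, 6.78 and 7.24. The 12-week mice formed the highest and tightest group, with 4 of 5 above all mice at 4 weeks. The difference from 4 weeks was 0.44 (unadjusted p = 0.0351, adjusted p = 0.523 from limma), and 16 weeks differed from 12 weeks by -0.48 (unadjusted p = 0.0237, adjusted p = 0.290). In both comparisons all 10 alternatives kept the sign, and none passed the test.

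Hsd11b1 moved with the spread of signals in the opposite sense to Hsd3b2. Its correlation with the spread was 0.78 over the 20 arrays with values centred on each age, and the correlation between Hsd11b1 and Hsd3b2 was -0.64. With the spread as a covariate the difference at 16 against 12 weeks was -0.19, and after cyclic loess it was -0.16. Of the 28 pairs of the 8 genes this one was farthest from 0 with values centred on each age. Without centring it was -0.22, and the pair of Esr1 and Hsd3b2 was farthest, at 0.53. The points share arrays and normalization.

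**Figure D4:**
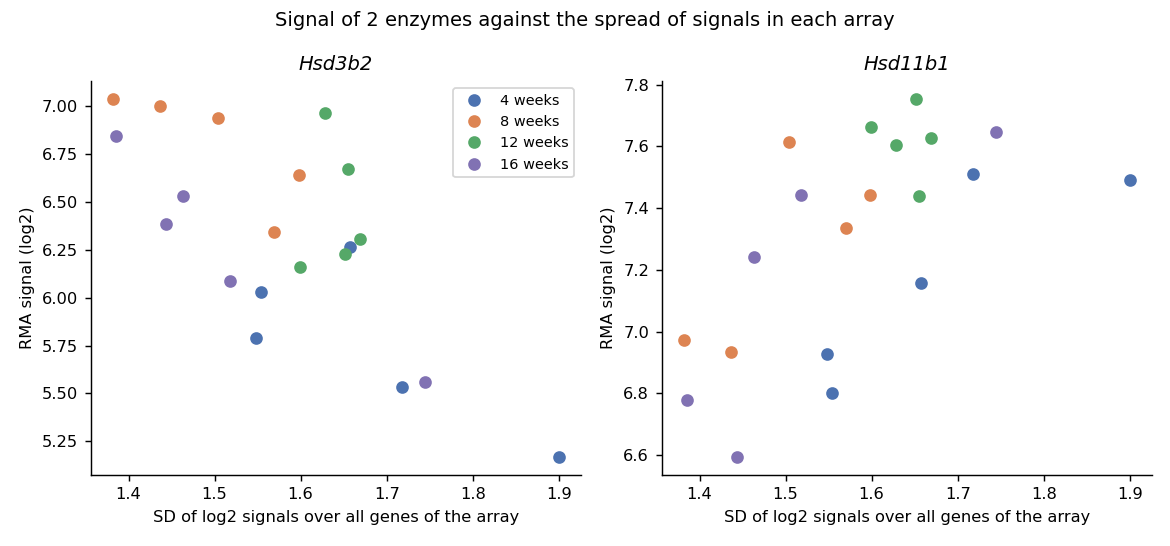
RMA signal (log2) of Hsd3b2 and Hsd11b1 against the SD of all log2 gene signals of the same array, with 1 point for each of 20 mice, coloured by age. Hsd3b2 is lower and Hsd11b1 higher in arrays of wide spread (correlations of -0.76 and 0.78 with values centred on each age).

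Genes that act before the receptors were described by lists. Of 26 measured enzymes of steroid synthesis and inactivation outside the 9 genes, 3 were called higher and 0 lower at 8 than at 4 weeks, against 3.26% and 4.13% of all genes, and none passed in another comparison by limma. These were Hsd3b3, Srd5a3, a polyprenol reductase related in sequence to the 5-alpha-reductases, which rose by 0.62 (adjusted p = 0.0499), and Cyp11b1, the 11-beta-hydroxylase of the adrenal cortex, which rose by 0.61 (adjusted p = 0.0275). The median of the list was 0.16, against 0.05 for all genes. Cyp11a1, the side-chain cleavage enzyme that starts steroid synthesis, read between 2.57 and 5.00 and at a median percentile of 9.57. The mean of 8 markers of adrenal cortex and gonad was 5.26 at 8 weeks (range 5.08 to 5.42), against 4.93 at 4 weeks (4.68 to 5.13), and its part in the result for Hsd3b2 was not tested. The count of 3 was 0 with the spread as a covariate and 0 without any 1 of the 4 mice named above. Srd5a3 was called in 2 of 10 alternatives and differed by 0.16 with averaged probe sets (adjusted p = 0.261).

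Of 14 genes that activate, carry or bind thyroid hormone, 2 were called higher and 2 lower at 8 than at 4 weeks, against 3.26% and 4.13% of all genes. Dio2, the deiodinase that makes active triiodothyronine, rose by 0.44 (adjusted p = 0.0399 from limma), and Slco1c1, a thyroxine transporter, rose by 0.78 (adjusted p = 0.0215). Slc7a5 and Slc3a2, the light and heavy chains of an amino acid exchanger that also carries thyroid hormone, fell by 1.90 (adjusted p = 0.00369) and 2.02 (adjusted p = 0.0185). Slc7a5 also fell by 1.67 at 16 against 12 weeks (adjusted p = 0.00940), was 2.47 lower at 16 than at 4 weeks (adjusted p = 8.5e-05), and passed in all of these comparisons with the spread as a covariate. At 8 against 4 weeks it was called in 9 of 10 alternatives, and in the other comparisons in 10 of 10. At 16 against 4 weeks Slc3a2 fell by 2.50 (adjusted p = 0.00502) and Slco1a4, a transporter of organic anions, rose by 0.70 (adjusted p = 0.0449). With the spread as a covariate 0 were higher and 1 lower at 8 against 4 weeks, with Slc3a2 at -1.03 (adjusted p = 0.174), and without any 1 of the 4 mice named above the counts were also 0 and 1. With averaged probe sets Dio2 differed by 0.22 (adjusted p = 0.256).

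Among 26 chaperones and coregulators of the receptors, Hsp90aa1, the inducible form of the chaperone that holds steroid receptors ready for hormone, fell by 1.46 at 8 against 4 weeks (adjusted p = 0.0345 from limma) and fell by 1.62 at 16 against 4 weeks (adjusted p = 0.0284). The mean of its probe sets gave -0.37 and -0.34, neither called. With the spread as a covariate Hsp90aa1 differed by -0.60 and -0.83 in these comparisons (adjusted p = 0.457 and 0.200 from limma). Ppargc1b, a coactivator of mitochondrial genes, rose by 1.01 at 16 against 4 weeks (adjusted p = 0.0209). No other gene of the list was called in any of the 6 comparisons. At 8 against 4 weeks 1 of 26 was thus lower, where 4.13% of all genes were lower. At 16 against 4 weeks 1 was higher and 1 lower, where 3.63% of all genes were called in either direction.

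Of 38 other nuclear receptors, 3 were called higher and 2 lower at 8 than at 4 weeks, where 3.26% and 4.13% of all genes were. Rora, Rarb and Nr0b2 rose by 0.71, 0.54 and 0.46 (adjusted p = 0.0350, 0.0395 and 0.0470 from limma). They encode the retinoid-related orphan receptor alpha, a retinoic acid receptor and the small heterodimer partner, a corepressor. Nr1d1 and Nr1d2, which encode heme-binding repressors of the circadian clock, fell by 1.07 and 1.60 (adjusted p = 0.00535 and 0.0173). Nr1d2 also fell by 1.47 at 16 against 12 weeks (adjusted p = 0.0477), where 0.187% of all genes were lower, and fell by 1.41 at 16 against 4 weeks (adjusted p = 0.0178). No other gene of this list was called in those comparisons. The labels do not give the time of day of harvest, and its part in the calls of Nr1d1 and Nr1d2 was not tested. With the spread as a covariate no gene of the list was called at 8 against 4 weeks, and without any 1 of the 4 mice named above 0 were higher and 1 was lower. With averaged probe sets Rora differed by 0.04 (adjusted p = 0.764) and Nr1d2 at 16 against 12 weeks by -0.57 (adjusted p = 0.212), a call that also held in only 6 of 20 fits without 1 mouse.

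Glucocorticoid receptor targets moved in 1 direction among those called. Of 20 targets, 5 were lower and 0 higher at 8 than at 4 weeks, where 4.13% of all genes were lower, and the median of the list was -0.52, against 0.05 for all genes. Ddit4, an inhibitor of mTOR signalling, fell by 2.26 (adjusted p = 0.0231 from limma). Anxa1, an anti-inflammatory annexin, differed by -1.102 (adjusted p = 0.0272), and Tsc22d3, the leucine zipper protein GILZ, by -1.06 (adjusted p = 0.0264). Klf9, a transcription factor that thyroid hormone also induces, differed by -1.03 (adjusted p = 0.0446), and the fifth was Cdkn1c. At 16 against 4 weeks 5 of 20 were lower and 0 higher, where 3.12% of all genes were lower, with Sgk1 in place of Cdkn1c. Sgk1, the kinase that keeps epithelial sodium channels at the membrane, also fell by 1.58 at 16 against 12 weeks (adjusted p = 0.0231). Fkbp5, a co-chaperone that glucocorticoids induce, differed by -0.88 at 8 against 4 weeks (adjusted p = 0.0577). Other uncalled targets had higher means at 8 than at 4 weeks, among them Zbtb16 (6.22 against 5.79), Errfi1 (6.89 against 6.49) and Cdkn1a (6.13 against 5.95).

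These counts moved with the spread of signals and with single mice. With the spread as a covariate 0 of the 20 targets were lower at 8 or at 16 than at 4 weeks, and Sgk1 stayed lower at 16 than at 12 weeks (-1.18, adjusted p = 0.0401 from limma). The count at 8 against 4 weeks was 0 without any 1 of the 4 mice named above and between 3 and 6 without any other. That at 16 against 4 weeks ran between 0, without replicate 2 at 16 weeks, and 9, without replicate 1 at 16 weeks, and it was 1 without replicate 4 or 5 at 4 weeks or replicate 4 at 16 weeks. With averaged probe sets 4 of the 20 were lower at 8 and 3 at 16 against 4 weeks. At 8 against 4 weeks Tsc22d3 then differed by -0.39, Anxa1 by -0.47 and Klf9 by -0.26, whereas Ddit4 stayed at -2.26. Klf9 was then not called (adjusted p = 0.429 from limma). Cdkn1c was called in 3 of 20 fits without 1 mouse. Klf9 and Anxa1 are bright, at or above the 94.8th percentile in every array. Of 11 fibroblast markers 4 were also called lower at 8 than at 4 weeks, where 4.13% of all genes were lower. Their mean was 6.37 at 8 weeks (range 6.18 to 6.70), against 7.13 at 4 weeks (6.92 to 7.41). Of 12 acinar markers 1 was called lower, and their mean was 9.56 at 8 weeks (8.79 to 10.7) against 10.7 at 4 weeks (9.13 to 11.5). Among them Amy1 averaged 5.54 at 8 weeks against 8.75 at 4 weeks, and Bpifa2 8.68 against 12.0. Pip, Prol1, Car6 and Chrm3 instead had slightly higher means at 8 weeks. The labels do not say which salivary glands each sample held. The part of fibroblasts, acinar cells or the mix of glands in the counts was not tested. The marker counts come from the same fit as the target counts, and their dependence on single mice was not tested.

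Of 13 mineralocorticoid receptor targets and sodium transport genes of ducts, 2 were lower at 8 than at 4 weeks, Tsc22d3 and Prss8, the protease prostasin that activates the epithelial sodium channel (-1.26, adjusted p = 0.0336 from limma). At 16 against 12 weeks 2 of 13 were lower, Sgk1 and Usp2, where 0.187% of all genes were lower. At 16 against 4 weeks 3 of 13 were lower, Sgk1, Tsc22d3 and Usp2, where 3.12% of all genes were lower. With the spread as a covariate these counts were 2 and 1. Usp2, a deubiquitinase under clock control, fell by 2.19 at 16 against 12 weeks (adjusted p = 0.00182) and fell by 1.86 at 16 against 4 weeks (adjusted p = 0.00335). It passed the test in all 10 alternatives and in all 20 fits without 1 mouse in both comparisons. Whether the time of day of harvest had a part in the calls of Usp2 was not tested. Scnn1a, Scnn1b and Scnn1g, the subunits of the channel itself, were not called in any comparison, with differences of 0.37, -0.01 and 0.17 at 8 against 4 weeks (adjusted p = 0.164, 0.977 and 0.501). The count at 8 against 4 weeks, where 4.13% of all genes were lower, was 0 with the spread as a covariate, with Prss8 at -0.44 (adjusted p = 0.418), and 0 without any 1 of the 4 mice named above.

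Of 15 thyroid hormone receptor targets, 3 were lower and 0 higher at 8 than at 4 weeks, where 4.13% of all genes were lower. These were Klf9, Atp2a2, the calcium pump of the endoplasmic reticulum (-1.16, adjusted p = 0.0442 from limma), and Cpt1a, the carnitine transferase of fatty acid oxidation (-1.03, adjusted p = 0.0307). The count was 0 with the spread as a covariate and 0 without any 1 of the 4 mice named above or replicate 2 at 8 weeks. With averaged probe sets it was 1, with Klf9 at -0.26 (adjusted p = 0.429 from limma) and Atp2a2 at -0.39 (adjusted p = 0.104). At 16 against 4 weeks 2 of 15 were lower, Klf9 (-1.10) and Atp2a2 (-1.28), where 3.12% of all genes were lower. That count was 0 with the spread as a covariate and 0 with averaged probe sets. Of 10 estrogen receptor targets none was called in any comparison by limma, and 4 passed unadjusted at 8 against 4 weeks, where 32.4% of all genes did.

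Among products of the granular convoluted tubules, 4 of 14 were higher and 0 lower at 8 against 4 weeks, where 3.26% of all genes were higher, with Klk1b5 up by 1.76 (adjusted p = 0.0262 from limma), and at 12 against 4 weeks 5 of 14 were higher, against 0.066% of all genes, with Klk1b16 up by 3.97 and Klk1b5 by 3.41 (adjusted p = 0.000339 each). With the spread as a covariate these counts were 3 and 9. The first was 0 without replicate 4 or 5 at 4 weeks or replicate 3 at 8 weeks. At 16 against 4 weeks 4 of 14 were higher, Klk1b16 by 2.30, Klk1b5 by 2.00, Klk1b21 by 1.47 and Klk1b1 by 1.29. There 3.63% of all genes were called in either direction. The same 4 genes were called at 8 against 4 weeks and, with Klk1b24, at 12 against 4 weeks. At 16 against 12 weeks none was called, and the median of the list was -0.90, against -0.02 for all genes. Uncalled members included negative differences at 8 against 4 weeks, among them Smr3a (-2.31, adjusted p = 0.232), Tgfa (-0.52, adjusted p = 0.144) and Egf (-0.38, adjusted p = 0.518). Kallikrein genes of this family are near-identical, so signals of single members are uncertain. Egf, the growth factor of the same tubules, differed by 0.94 at 12 against 4 weeks (adjusted p = 0.515), and the median of the list was 1.499. None of the 8 receptor and enzyme genes was called at 12 against 4 weeks, where 0.0934% of all genes were called in either direction. At an unadjusted p under 0.05, 2 of the 8 passed there, Hsd3b2 (0.71) and Hsd11b1 (0.44), against 9.03% of all genes.

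**Figure D5:**
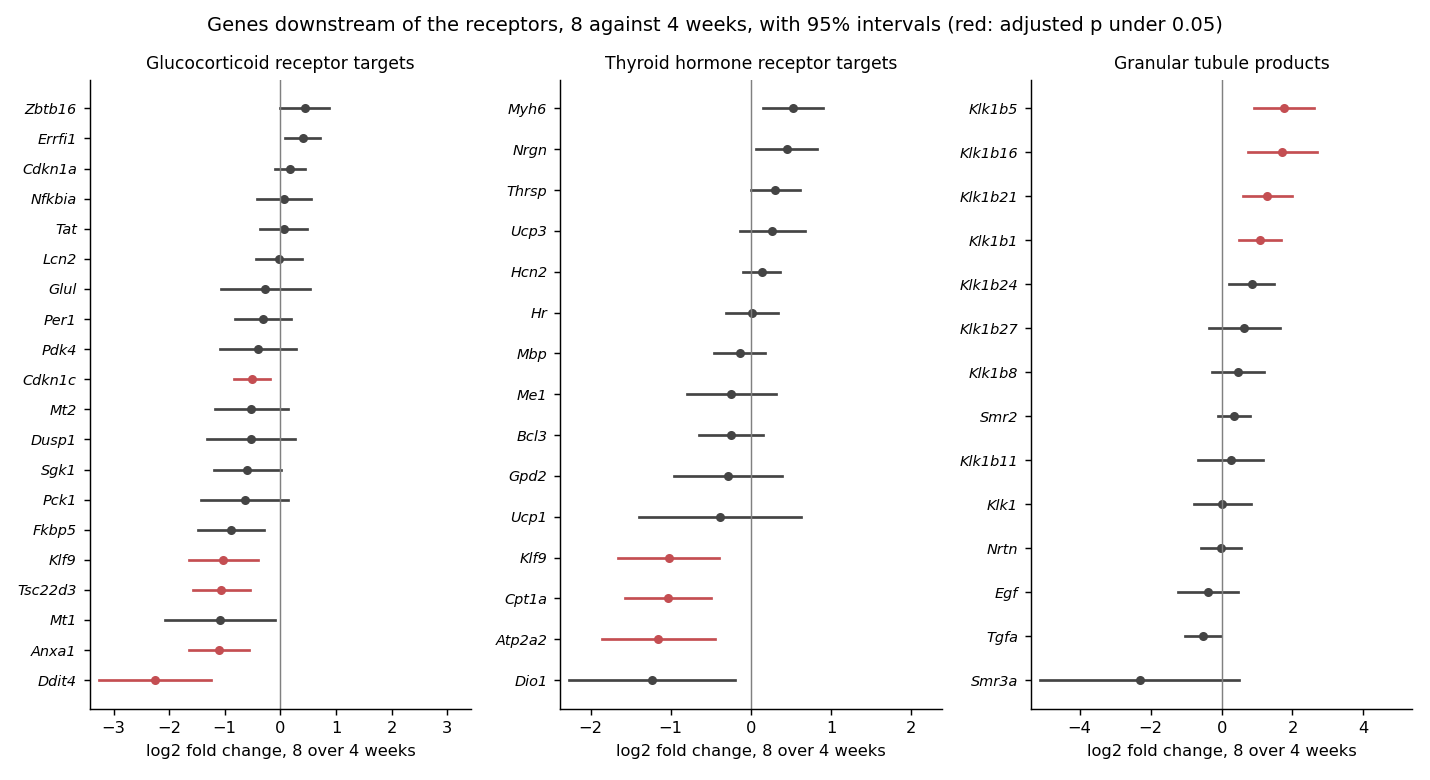
log2 fold change at 8 over 4 weeks with 95% intervals for 20 glucocorticoid receptor targets, 15 thyroid hormone receptor targets and 14 granular tubule products, ordered by size. The calls, in red, are 5 and 3 lower genes among the receptor targets and 4 higher genes among the tubule products.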

How the data were processed

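Per the labels, salivary gland RNA of 20 mice was hybridised to 20 arrays. The authors deposited log2 values of 45101 probe sets after RMA in Expression Console, and no further normalization was made. The platform annotation gave 34958 probe sets 1 symbol and 932 several, and 9211 were not listed or had no symbol. For each of 18194 genes the probe set of the highest mean over 20 arrays was used. Names and positions are those of RefSeq on GRCm38.p6.

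One linear model with the 4 ages as groups was fitted to the 20 arrays (limma 3.58.1, R 4.3.3). Benjamini-Hochberg adjustment ran over the genes of each comparison, and the threshold was 0.05. Each mouse is 1 replicate, so p-values measure the spread between mice of an age. The number of arrays limits the precision. Signals of probe sets that hold several symbols were used only where stated. The limma fit was tested on simulated data in which genes varied independently. Such data hold no spread of signals shared within an array, so they cannot test how the calls depend on it.

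Named were every receptor and enzyme gene, from each list up to 4 called genes of the largest change in a comparison, and the 3 genes most like Hsd3b2 by correlation. Fkbp5, Egf, Hsd3b1, Cyp11a1, Klk1, Cdkn1c, Smr3a, Tgfa, the Scnn1 genes and the single probe sets of Nr3c1 were added after their values were seen. So were Zbtb16, Errfi1 and Cdkn1a. The genes and lists were chosen with earlier results of these data known. Alternatives were array medians set equal, cyclic loess, averaged probe sets, probe sets tested singly, only genes above the 40th percentile of signal, the replicate number as a block, robust limma-trend, array weights, the spread as a covariate, a fit to 2 ages and leaving out each mouse. For the lists and for single probe sets of Nr3c1 they were chosen after seeing the data.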

Additional observations from a re-analysis of the deposited data

Results flagged for a closer look

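A mouse stood apart from the other 4 of its age in 3 of 32 groups, each a gene at 12 weeks. Chance alone flags about 1 in 20 groups. Nr3c1 read 5.22 in replicate 2, against 6.35 to 6.49 in the other mice at 12 weeks. Thrb read 5.04 in the same replicate 2, against 4.73 to 4.81 in the others. Esr1 read 4.47 in replicate 3, against 4.699 to 4.78 in the others.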

How the results depend on the processing

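Dim genes such as Hsd11b2 are limited by signal over background. The difference of Hsd3b2 at 8 against 4 weeks was positive in all 10 alternatives and called in 6 of them. The number of the 8 genes called there was 2 with averaged probe sets (Hsd3b2 and Esr1) and 0 with the replicate block (Hsd3b2 1.04, adjusted p = 0.0507 from limma), array weights, the spread as a covariate or the 2 ages alone. Over all genes the calls were 1345, against 245 with the block, 210 with array weights, 16 with the spread and 2 with the 2 ages alone. Without 1 mouse each, between 0 and 2 of the 8 genes were called at 8 against 4 weeks, between 0 and 1 at 16 against 4 weeks, between 0 and 1 by the F test and 0 in the other comparisons. The labels give replicate numbers and do not state a pairing or batch. With values centred on each age, same-numbered mice of 2 ages had correlations between -0.57 and 0.58. Their means for each pair of ages ran from -0.18 to 0.07, against -0.02 to 0.05 for other-numbered mice. Whether the numbers stand for a batch was not tested. The filter left out Esr1, Nr3c2, Thrb and Hsd11b2.

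Small differences that were not called changed sign, and the cause was not tested. Median centring gave -0.0091 for Esr1 at 12 against 4 weeks, and array weights gave -0.0185 for Thrb there. Cyclic loess gave -0.0132 for Esr1 and -0.0039 for Thrb at 12 against 4 weeks, 0.0077 for Nr3c1 at 16 against 8 weeks, 0.1099 for Nr3c2 and -0.0641 for Thra at 12 against 8 weeks, -0.0218 for Nr3c2 at 16 against 12 weeks, 0.3031 for Hsd11b1 at 16 against 4 weeks and -0.0598 for Hsd11b2 at 8 against 4 weeks. The spread as a covariate gave -0.0031, -0.0132 and -0.0163 for Esr1 at 16 against 12, 12 against 4 and 16 against 4 weeks, -0.0188, 0.0127 and -0.0061 for Thrb at 8 against 4, 12 against 8 and 12 against 4 weeks, 0.0621 for Hsd3b2 at 12 against 8 weeks, 0.3296 for Hsd11b1 at 16 against 4 weeks, and -0.0326 and -0.085 for Hsd11b2 at 8 against 4 and 16 against 12 weeks. Without 1 mouse each, the ranges that crossed 0 were -0.013 to 0.0646 (Esr1, 12 against 4 weeks), -0.0464 to 0.2878 and -0.104 to 0.0891 (Nr3c1, 12 against 4 and 16 against 8), -0.09 to 0.0843, -0.0715 to 0.0928 and -0.075 to 0.0893 (Nr3c2, 12 against 8, 16 against 12 and 16 against 8), -0.0115 to 0.088 (Thra, 12 against 8), -0.0151 to 0.2037, -0.1823 to 0.0365 and -0.0621 to 0.0857 (Thrb, 8 against 4, 12 against 8 and 12 against 4), -0.0118 to 0.166, -0.2453 to 0.0175 and -0.1628 to 0.1 (Hsd11b1, 8 against 4, 16 against 8 and 16 against 4) and -0.0164 to 0.0817, -0.1411 to 0.027 and -0.1215 to 0.0466 (Hsd11b2, 16 against 12, 12 against 4 and 16 against 4).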
